A study of Mus musculus with 6 samples.

Results

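The genes described here are 37 chaperones and genes of the unfolded protein response, read from mRNA sequencing of mouse bone marrow-derived dendritic cells. They were chosen by name, as the entries of the deposited table whose Ensembl identifier carries one of 37 listed symbols in GENCODE mouse release 39, a rule that uses no expression value, although the symbols were listed with earlier results of these data known. All 37 were found among the 57132 genes of the table. By the place where the proteins work, 11 belong to the cytosol, 4 to mitochondria and 15 to folding in the endoplasmic reticulum (ER), and 7 sense ER stress or degrade ER proteins. A filter on low counts left 34 of them among the 10554 genes tested, and Hspa1a, Hspa1b and Hspb1 did not pass it. Cells were grown from the marrow of female C57BL/6 mice of 6 to 8 weeks with GM-CSF at 15 ng/mL and dialyzed serum, fed on days 2 and 4 and lysed on day 5. The medium held no added queuine in one group (0Q, 3 libraries) and queuine at 100 nM in the other (100Q, 3 libraries). Queuine is a diet- and microbe-derived base that cells insert as queuosine into the anticodon of the tRNAs for asparagine, aspartate, histidine and tyrosine. The labels speak of plating in triplicate and name no separate animals, so p-values measure how these cultures vary among themselves, a spread that may be technical.

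Chaperones bind proteins that are not yet folded or have lost their fold. Members of the Hsp70 family (Hspa genes) hold short stretches of chain with the help of J-domain partners (Dnaj genes), Hsp90 proteins act on clients near their final fold, and the mitochondrial pair Hspd1 and Hspe1 forms a closed folding chamber. In the cytosol, heat stress induces such genes through the factor HSF1. In the ER, a surplus of unfolded protein is sensed by Ern1 (IRE1), Atf6 and Eif2ak3 (PERK), and the factors that they release, spliced XBP1, cleaved ATF6 and ATF4, switch on ER chaperones, folding enzymes and the machinery that returns faulty proteins to the cytosol for degradation. Dendritic cells carry out much ER folding as they make surface receptors and MHC molecules, and the XBP1 branch is known for its part in their development and survival.

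Total counts ran from 3675931 to 6755398 for the 0Q libraries and from 4484793 to 19386617 for the 100Q libraries, and 3 counts corresponded to 0.159 to 0.833 CPM (counts scaled to a common library size with TMM factors). All 10 dendritic cell markers of a list were tested, led by H2-Aa, an MHC class II chain, at 577 ± 91.9 CPM without queuine and 580.3 ± 76.5 CPM with it (SD, n = 3 each). Of the 10 estimates 8 lay above 0, where 50% of all genes tested did, and 1 had an unadjusted p under 0.05 by edgeR. Groups did not overlap, with 100Q higher, for 1 of the 10, against 4.41% of all genes. Macrophage genes were abundant beside the dendritic cell markers, with Lyz2, the lysozyme of myeloid cells, at 17825 and 18473 CPM. B and plasma cell markers summed to 72.2 to 91.2 CPM over the 6 libraries, with Ighm, an antibody heavy chain, at 55.4 and 53.2 CPM. Erythroid markers summed to 95.4 to 113 CPM, led by Hba-a2, a haemoglobin chain, and T and NK cell markers to 1.52 to 5.29 CPM, led by Cd3d, a T cell receptor subunit. Granulocyte markers, led by S100a9, summed to 16950 to 19869 CPM without queuine and 14138 to 17219 CPM with it, with 9 of 10 estimates below 0. By edgeR 3 of these 10 had an unadjusted p under 0.05, against 2.93% of all genes tested, and 0 passed adjustment. Groups did not overlap, with 100Q lower, for 3 of the 10, against 3.84% of all genes. Mast cell and basophil markers, led by Prss34, summed to 449 to 502 CPM and 344 to 442 CPM, ranges that did not overlap. Taken singly, the groups overlapped for each of the 6 markers, and 0 had an unadjusted p under 0.05 by edgeR. The part of these cells in the results that follow was not tested. In 0Q replicate 1 levels were relatively lower for long transcripts, with a rank correlation of -0.21 between deviation and length over 10538 genes against -0.05 to 0.14 elsewhere.

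Promoters of many ER folding genes held an element known from ER stress. The genes were listed for their part in folding and the unfolded protein response. A match is therefore not independent of the choice by name. RefSeq promoter windows, which run from 250 bases before a start site to the bases just after it, were matched by symbol to 30 of the 37 genes. Hspa8, Hsp90aa1, Hsp90ab1, Hspa9, Manf, Hyou1 and Atf6 had no entry. The windows come from build GRCm38.p6 and were placed on GRCm39, the build of the counts, by exact match. Windows were searched on both strands for 4 elements. Only exact matches of the fixed letters counted, so a gene without a match may still hold an imperfect form. The ER stress response element (ERSE) is CCAAT and CCACG with 9 bases of any kind between them, and its shorter form ERSE-II is ATTGG and CCACG with 1 base between. The unfolded protein response element (UPRE) is TGACGTGG, and the heat shock element (HSE) is GAA, TTC and GAA with 2 bases between neighbours. Every ERSE contains a CCAAT box. An ERSE was found for 7 of the 13 ER folding genes with a window and for Syvn1 among the ER stress genes, and for 0 of 8 cytosolic and 0 of 3 mitochondrial genes. Over all windows 39 of 32544, or 0.12%, held an ERSE, and counted by gene 37 of 26742, or 0.138%, did. The matches are shown because several of the most abundant ER chaperones hold one, each with 10 bases on either side, 5′ to 3′ in the motif's own direction, with the fixed letters of the motif in capitals.

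Hspa5 (chr2:34662027-34662065, + strand): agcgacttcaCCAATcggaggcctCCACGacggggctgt
Hsp90b1, far match (chr10:86541492-86541530, - strand): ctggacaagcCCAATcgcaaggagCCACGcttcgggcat
Hsp90b1, near match (chr10:86541387-86541425, + strand): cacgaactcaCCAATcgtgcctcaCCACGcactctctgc
Calr (chr8:85573694-85573732, + strand): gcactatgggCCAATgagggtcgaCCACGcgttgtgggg
Canx (chr11:50216617-50216655, - strand): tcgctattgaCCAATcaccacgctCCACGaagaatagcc
Pdia6 (chr12:17316482-17316520, + strand): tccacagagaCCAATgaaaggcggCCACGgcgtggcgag
Dnajc3 (chr14:119175229-119175267, + strand): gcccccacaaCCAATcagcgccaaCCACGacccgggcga
Creld2 (chr15:88703713-88703751, - strand): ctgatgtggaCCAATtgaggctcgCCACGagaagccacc
Syvn1 (chr19:6096552-6096590, + strand): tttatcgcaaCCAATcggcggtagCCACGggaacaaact

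The motif pointed with the gene in Hspa5, Canx, Pdia6, Dnajc3, Syvn1 and the far match of Hsp90b1, and against it in Calr, Creld2 and the near match of Hsp90b1. Its nearest letter lay 26 bases before the start in Syvn1 and 47 in Hspa5, and 194 bases before it in the far match of Hsp90b1. ERSE-II was found in Herpud1, whose product anchors the ER degradation machinery, and in Dnajb11, a J-domain partner of BiP. In Dnajb11 it lay after the start. ERSE-II occurred in 0.0369% of all windows and for 0.0449% of all genes with a window. The Herpud1 stretch (chr8:95112995-95113025, + strand) shows how the CCAAT box, read here on the other strand as ATTGG, sits next to CCACG.

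Herpud1: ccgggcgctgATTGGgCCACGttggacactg

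An HSE was found for Hspd1, Hspe1 and Hsph1, against 0.608% of all windows and 0.669% of all genes with a window. In Hsph1 it lay after the start. Hspd1 and Hspe1 are neighbours on chromosome 1 that are read in opposite directions, and their windows overlap, so both hold the same stretch. It is shown in the direction of Hspe1 (chr1:55127213-55127245, + strand), with its nearest letter 72 bases before the start of Hspe1.

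Hspe1 and Hspd1: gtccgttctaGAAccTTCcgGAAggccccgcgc

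The UPRE was found in 0 of the 30 genes, in 0.682% of all windows and for 0.722% of all genes with a window. A match describes letters only, and the libraries did not measure binding. The 250 bases before the start of Hspa5, the gene of BiP, show the setting of its ERSE (chr2:34661852-34662101, + strand), with the ERSE and the 3 other CCAAT boxes, one of them on the other strand, in capitals.

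Hspa5, upstream: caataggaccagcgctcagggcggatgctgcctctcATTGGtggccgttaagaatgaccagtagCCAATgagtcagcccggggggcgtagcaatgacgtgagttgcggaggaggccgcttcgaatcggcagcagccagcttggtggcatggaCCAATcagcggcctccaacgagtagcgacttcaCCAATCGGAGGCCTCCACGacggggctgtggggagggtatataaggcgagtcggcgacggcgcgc

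Many of the coding sequences end in signals that contain codons read by the tRNAs that carry queuosine. Soluble ER residents carry a KDEL-type signal at the C terminus, which returns them from the Golgi, and cytosolic Hsp70 and Hsp90 proteins end in an EEVD-type signal, which binds co-chaperones. Both signals include an aspartate, whose codons are GAC and GAU (GAT in DNA). The last 4 codons and the stop codon are shown from the GENCODE canonical transcripts, with codons for asparagine, aspartate, histidine or tyrosine in capitals.

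Hspa5: aaaGATgagttgtag
Hsp90b1: aagGATgaattgtaa
Calr: aagGATgagctgtag
P4hb: aagGATgaactgtag
Pdia6: aagGATgagttgtga
Pdia3: caagagGACctctaa
Sdf2l1: CACGATgaactctga
Hyou1: AACGATgaactataa
Manf: cggactGATctgtag
Creld2: cgtgagGATttgtga
Pdia4: aaggaagagctttaa
Hspa8: gaagaggtgGATtaa
Hsp90ab1: gaagaggtgGATtaa
Hsp90aa1: gaagaagtaGACtaa
Hspa1a: gaggaggtgGATtag

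Of the 15 ER folding genes, 10 had an aspartate codon among their last 4, and it was GAT in 9 and GAC in Pdia3. Pdia4 ended without one. Among the 11 cytosolic genes the 9 such codons were 5 GAT and 4 GAC. Among all 21552 coding sequences, GAT made up 40.7% of the aspartate codons in the last 4, and over whole coding sequences 45.8%. Hspa1a showed a contrast within 1 gene, since its last aspartate codon was GAT while 3 of its 97 codons for the 4 amino acids, or 3.09%, ended in T.

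**Figure D1:**
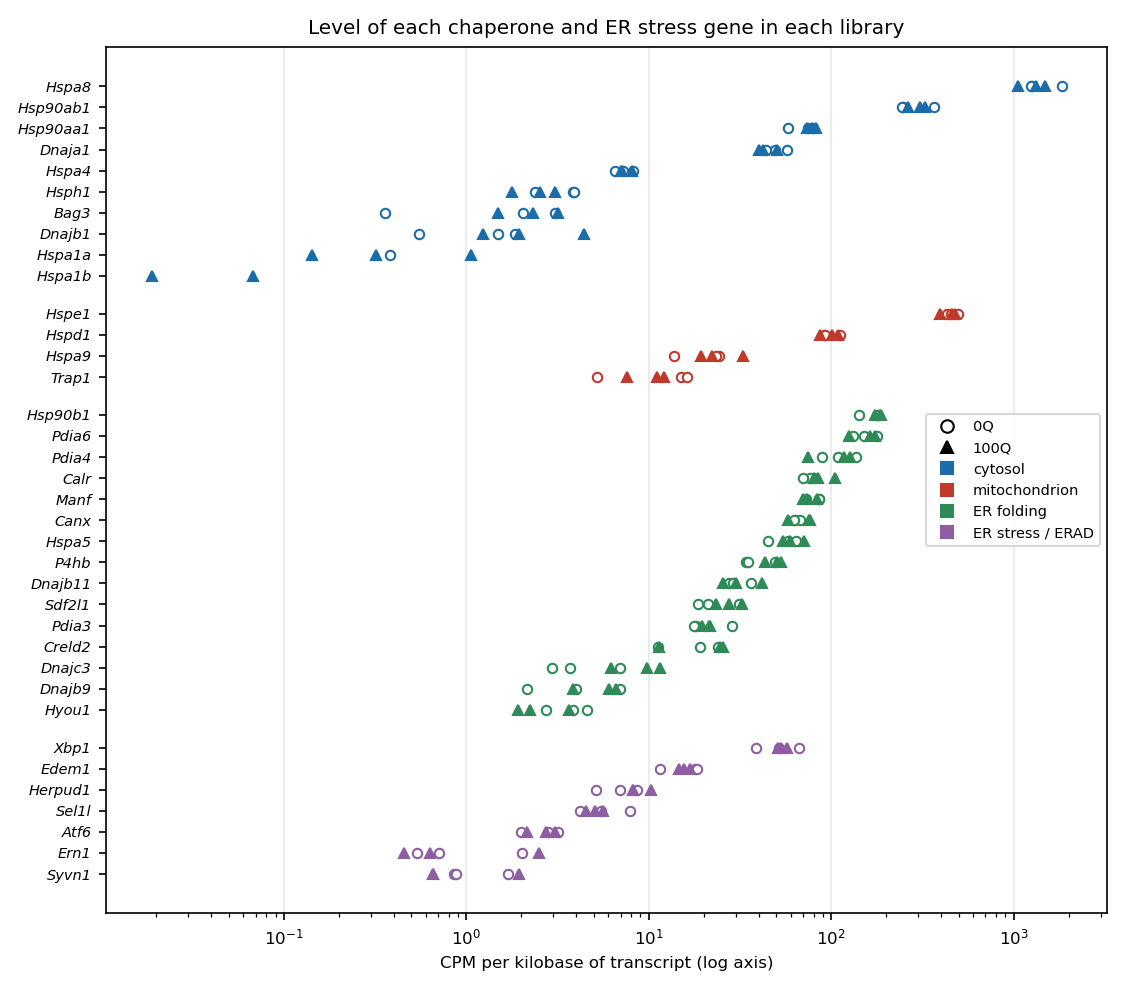
Level of each gene in each library in CPM per kilobase of canonical transcript (log axis), open circles for 0Q and filled triangles for 100Q, grouped by compartment; values of 0 cannot be drawn, and Hspb1 is left out. Hspa8 and Hspe1 lead the cytosolic and mitochondrial genes, and the 2 groups overlap for every gene drawn except Calr.

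Levels spanned a wide range, and the constitutive chaperones led. Per kilobase of transcript, Hspa8, the constitutive Hsp70 of the cytosol, had 1364 CPM over the 6 libraries, Hspe1 452, Hsp90ab1 292 and Hsp90b1, the Hsp90 of the ER, 174. Pdia6 and Pdia4, ER disulfide isomerases, had 154 and 109 CPM per kilobase, Hspd1 98.4 and Hspa5 58.7. The sensors and ligase of ER stress were low on this scale, with Atf6 at 2.64, Ern1 at 1.14 and Syvn1 at 1.11, while Xbp1 had 52.9. These lengths are of the canonical transcripts, and which isoforms the cells used was not measured. Division by length also assumes reads along the whole transcript, and the library chemistry is not known. Without the division Hspe1 had 349.5 CPM, below Hsp90ab1 at 789, Pdia4 at 597, Pdia6 at 512 and Hsp90b1 at 493. Summed without regard to length, the 37 genes took 0.782% to 0.98% of a library.

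The ER pair Hsp90b1 and Hspa5 kept a near constant ratio, the steadiest of several that were computed. Per kilobase it was 3.14, 3.07 and 2.83 in 0Q replicates 1 to 3 and 3.07, 2.64 and 3.18 in 100Q replicates 1 to 3. By contrast the ratio of cytosolic Hspa8 to Hspa5 was 40.7, 21.6 and 19.5 in 0Q and 22.1, 14.9 and 27.0 in 100Q. The 3 libraries of 0Q alone spanned most of this range, and the groups overlapped. Ratios within the ER were not all steady. Over the 6 libraries Pdia4 to P4hb ran from 1.48 to 3.99 and Pdia4 to Pdia3 from 3.44 to 7.51, while Calr to Canx kept between 1.10 and 1.40. Hsp90ab1 exceeded its heat-inducible relative Hsp90aa1 by 3.06 to 6.29 times, and the coding sequences of the 2 are 75.7% identical.

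Hspa1a, Hspa1b and Hspb1 were at or near 0 counts. Hspa1a (chr17:35188166-35191132, - strand), a stress-induced Hsp70, had 6, 0 and 0 counts in 0Q and 5, 15 and 8 in 100Q. Its neighbour Hspa1b (chr17:35175412-35178214, - strand) had 0, 0 and 0 counts in 0Q and 1, 0 and 1 in 100Q. The 2 coding sequences are 99.4% identical, so reads can be divided between them and both values are uncertain. Hspb1, a small heat shock protein, was at 0 counts throughout; for the deepest library a count of 0 allows 0.159 CPM at most, a limit that covers counting error only. The filter on low counts kept all 3 out of the test. Without that filter Hspa1a and Hspa1b were tested, and 0 of 36 members passed.

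None of the chaperone and unfolded protein response genes passed the test when 100Q was set against 0Q. Of the 34 tested, 0 reached an adjusted p under 0.05 by edgeR's quasi-likelihood test, as did 0 of all 10554 genes (0%), and the smallest adjusted p was 0.999 for both. At an unadjusted p under 0.05 there was 1 member, Dnajc3, against 2.93% of all genes tested (1.77% higher and 1.16% lower in 100Q), and DESeq2 and limma-voom each called 0 members with 1 at an unadjusted p under 0.05. Estimates lay above 0 in 20 of the 34, where 50% of all genes tested did, with a median log2 fold change of 0.05 against 0.00 over all genes. At 100 CPM or more 9 of 15 members lay above 0, against 32.2% of all genes at that level, which was not tested. A difference in a bulk culture can come from fewer cells of a type or from less RNA per cell, which cannot be told apart here. For 18 of the 34 members the whole 95% interval was inside a 1.5-fold difference either way, against 18% of all genes. Among members at 100 CPM or more it was for 14 of 15, against 89.5% of all genes at that level. The exception was P4hb.

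**Figure D2:**
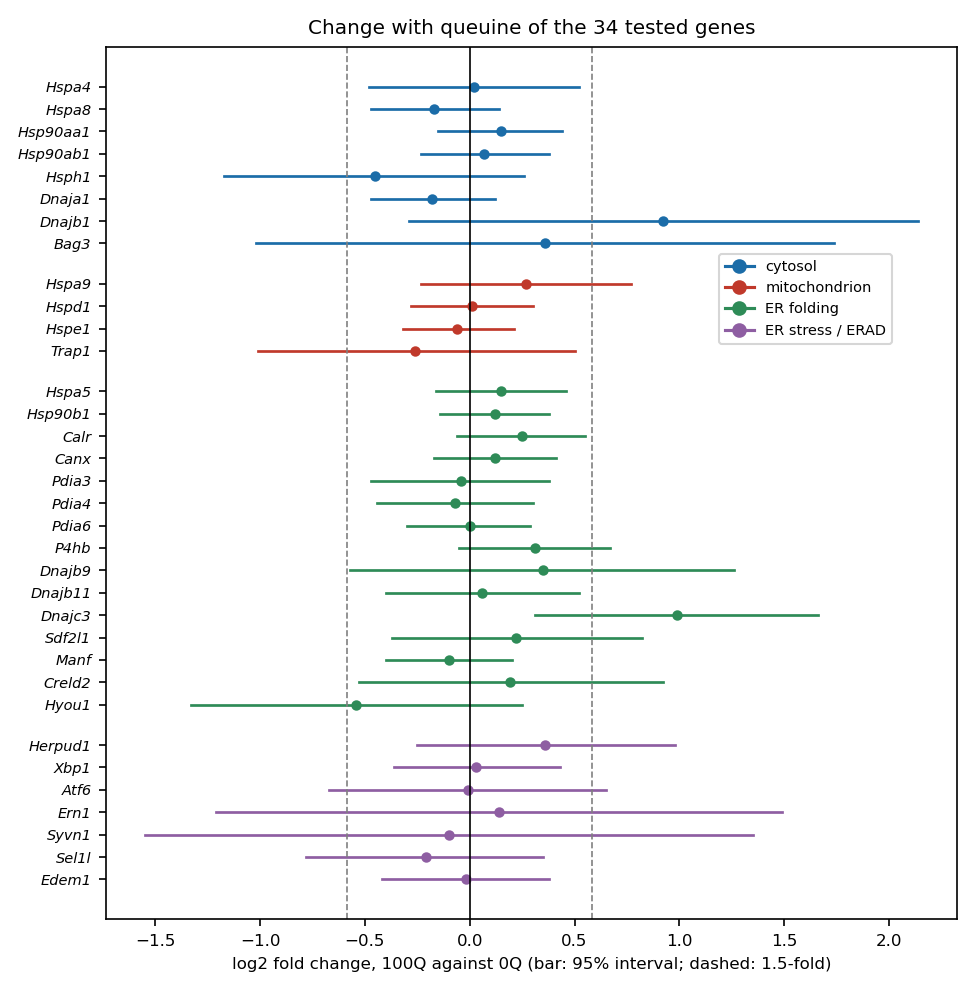
Log2 fold change of the 34 tested genes in 100Q relative to 0Q (points) with 95% intervals from edgeR (bars), coloured by compartment, with dashed lines at 1.5-fold. Intervals are short for abundant genes such as Hspe1 and Hsp90b1 and long for Bag3, Ern1 and Syvn1, and Dnajc3 has the only interval clear of 0.

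Among cytosolic chaperones the abundant members differed little between the groups. Hspa8 (chr9:40711630-40731039, + strand) had 4373, 3007 and 2978 CPM without queuine and 3173, 2521 and 3538 CPM with it. The highest and the lowest of these were 0Q replicate 1 and 100Q replicate 2, and the groups overlapped. The log2 fold change was -0.17 (SE 0.14, 95% interval -0.47 to 0.14). Without 0Q replicate 1 this estimate was 0.04, the largest of the values with 1 library left out. Dnaja1, its J-domain partner, showed the same order at the ends, with 319.9, 274 and 243 CPM without queuine and 235, 225 and 280.1 CPM with it, which gives -0.18 as log2 fold change (SE 0.14). Hsp90ab1 had 986, 666 and 656 CPM without queuine and 716, 832 and 879.6 CPM with it, which gives 0.07 as log2 fold change (SE 0.14). For Hsp90aa1 the values were 205, 263 and 280.0 CPM without queuine and 277, 292 and 259 CPM with it, which gives 0.15 as log2 fold change (SE 0.14). Here 0Q replicate 1 was the lowest library, the reverse of its place for Hspa8.

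Nucleotide exchange factors and stress-linked partners were scarcer. Hspa4, an exchange factor for Hsp70, was the steadiest of them at 31.7 to 39.7 CPM without queuine and 34.2 to 39.4 CPM with it, which gives 0.02 as log2 fold change (SE 0.24). Hsph1, its heat-inducible relative, had 14.7 to 24.0 CPM without queuine and 11 to 19.0 CPM with it, which gives -0.45 as log2 fold change (SE 0.34), an estimate that kept its sign with each library left out (-0.64 to -0.28). Dnajb1, the J-domain partner most tied to heat shock, had 5.29, 6.49 and 1.94 CPM without queuine and 4.37, 15.6 and 6.87 CPM with it. Its log2 fold change of 0.92 (SE 0.58, edgeR unadjusted p = 0.127) was 0.28 without 100Q replicate 2, the library with the highest value. Bag3, a co-chaperone that links Hsp70 to autophagy, ranged from 0.944 to 8.06 CPM within 0Q and from 3.91 to 8.36 CPM within 100Q (log2 fold change 0.36, SE 0.66). Over the 8 tested cytosolic genes 5 estimates lay above 0 and the median was 0.05.

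Estimates for the mitochondrial chamber had short intervals, and the groups differed by less than the spread between libraries. Hspd1 (chr1:55116989-55171038, - strand), which forms its barrel, had 269.7, 221 and 223 CPM without queuine and 243, 209 and 265 CPM with it, which gives 0.01 as log2 fold change (95% interval -0.28 to 0.30). Its lid Hspe1 (chr1:55127260-55130476, + strand) had 385, 332 and 352 CPM without queuine and 307, 354 and 368 CPM with it, which gives -0.06 as log2 fold change (95% interval -0.32 to 0.21). The 2 genes overlap in the annotation on opposite strands, and without knowledge of strand in the counting their reads cannot be fully told apart. Per kilobase Hspe1 exceeded Hspd1 by 3.96 to 5.31 times. Hspa9, the mitochondrial Hsp70, had 46.3, 82.4 and 79.2 CPM without queuine and 75.3, 111 and 65.4 CPM with it (log2 fold change 0.27, SE 0.24), an estimate that was 0.05 without 0Q replicate 1 and 0.02 without 100Q replicate 2. Trap1, the mitochondrial Hsp90, varied 3.12-fold between libraries, from 12.2 CPM in 0Q replicate 3 to 38.1 CPM in 0Q replicate 2, and had a log2 fold change of -0.26 (SE 0.36). The median of the 4 was -0.02.

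None of the 15 ER folding genes passed the test. Of their estimates 10 lay above 0 and 5 below, from -0.54 in Hyou1 to 0.99 in Dnajc3, with a median log2 fold change of 0.12. Summed, they made up 2669 to 2930 CPM without queuine and 2869 to 3109 CPM with it, ranges that overlap. Hspa5 (chr2:34661982-34668880, + strand), the BiP that binds new chains and holds the stress sensors inactive, had 222, 288 and 316 CPM without queuine and 296, 349.9 and 271 CPM with it. The lowest was 0Q replicate 1, the highest 100Q replicate 2, and the log2 fold change was 0.15 (SE 0.15, 95% interval -0.16 to 0.46). Hsp90b1 (chr10:86526073-86541446, - strand), needed for the folding of Toll-like receptors and integrins, had 399, 505 and 511 CPM without queuine and 520.1, 528 and 493 CPM with it. Its lowest and highest libraries were the same as for Hspa5. The log2 fold change was 0.12 (SE 0.12), and 0.02 without 0Q replicate 1.

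The lectin chaperones of the calnexin cycle hold glycoproteins while they fold. Calr (chr8:85567946-85573667, - strand), calreticulin, had 185, 174 and 160.0 CPM without queuine and 193, 239 and 185 CPM with it. It was the 1 member whose groups did not overlap, with the nearest libraries, 0Q replicate 1 and 100Q replicate 3, equal to 3 digits. Of all genes tested 8.24% had groups that did not overlap, 4.41% with 100Q higher. Its log2 fold change was 0.25 (SE 0.14, 95% interval -0.06 to 0.55, edgeR unadjusted p = 0.103, adjusted p = 0.999), from 0.12 to 0.32 with each library left out. Canx, calnexin, had 241, 256 and 239 CPM without queuine and 291, 288 and 219.5 CPM with it, so that 2 libraries of 100Q lay above all of 0Q and 1 below (log2 fold change 0.12, SE 0.14). Pdia3, the oxidoreductase that works with both, had 65.3 to 105 CPM without queuine and 72.1 to 80.0 CPM with it (log2 fold change -0.04, SE 0.20).

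Among the disulfide isomerases, P4hb had the largest estimate, with 100.5, 144 and 103 CPM without queuine and 155, 149 and 127 CPM with it. The log2 fold change was 0.31 (SE 0.17, 95% interval -0.05 to 0.67, edgeR unadjusted p = 0.0878, adjusted p = 0.999), and 0Q replicate 2 lay within the range of 100Q. Pdia4 had 749.6, 599 and 487 CPM without queuine and 642, 412 and 695 CPM with it (log2 fold change -0.07, SE 0.18), and Pdia6 592, 506 and 439.7 CPM without queuine and 575, 418 and 541 CPM with it (log2 fold change -0.00, SE 0.14). Both were highest in 0Q replicate 1 and lowest in 100Q replicate 2, and P4hb was lowest in 0Q replicate 1.

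Dnajc3 (chr14:119175317-119219115, + strand), also known as p58IPK, an ER J-domain partner of BiP that also restrains the kinase PERK, had the smallest p of the members. It had 15.3, 36.1 and 19.2 CPM without queuine and 50.6, 59.4 and 32.3 CPM with it. One library of each group crossed, since 0Q replicate 2 lay above 100Q replicate 3. The log2 fold change was 0.99 (SE 0.32, 95% interval 0.31 to 1.66, edgeR unadjusted p = 0.00659), which failed adjustment over all genes (adjusted p = 0.999). With libraries left out, its estimate was lowest, at 0.75, without 0Q replicate 1 and highest, at 1.45, without 0Q replicate 2, and its adjusted p by the alternatives ran from 0.329 to 1. The value rests on 69 to 611 counts per library.

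The other BiP partners and ER stress genes were mostly below 100 CPM, and their groups overlapped. Dnajb9, a J-domain protein that shuts off IRE1, had 5.29 to 17.2 CPM without queuine and 9.51 to 16.2 CPM with it (log2 fold change 0.35, SE 0.44). For Dnajb11 the means were 62.0 ± 9.75 and 64.9 ± 17.0 CPM (SD, n = 3 each), a log2 fold change of 0.06. Hyou1, the exchange factor of BiP, had the lowest estimate of the group at -0.54 (SE 0.38, 95% interval -1.33 to 0.25), with 17.0, 20.4 and 12.2 CPM without queuine and 8.55, 16.2 and 9.88 CPM with it. Sdf2l1, which keeps BiP substrates soluble, had 26.2 ± 7.36 and 30.9 ± 5.2 CPM, and Creld2, a stress-induced ER protein, 25.3 ± 9.06 and 28.7 ± 11 CPM (SD, n = 3 each). Manf, a secreted factor that binds BiP, was the most even member over the 6 libraries, with 158 to 193 CPM and an estimate of -0.10 (SE 0.14).

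The regulators of the response and the degradation machinery showed no common direction, with 3 of 7 estimates above 0 and a median of -0.01. Xbp1 (chr11:5470606-5483027, + strand), the factor that IRE1 activates by splicing, had 76.3, 130.2 and 102 CPM without queuine and 101, 112 and 104 CPM with it. The 100Q values lay inside the range of 0Q, and the log2 fold change was 0.03 (SE 0.19). Gene counts do not separate spliced from unspliced Xbp1, so activation of IRE1 was not measured. Ern1, the IRE1 sensor, had 3.78, 4.94 and 14.2 CPM without queuine and 17.5, 4.42 and 3.17 CPM with it, a 5.52-fold range with 1 high library in each group (log2 fold change 0.14, SE 0.64). The estimate was 0.91 without 0Q replicate 3 and -1.0 without 100Q replicate 1, the high libraries. Atf6, the sensor that is cut in the Golgi, had 15.0 to 24.0 CPM without queuine and 16.2 to 23.0 CPM with it (log2 fold change -0.01, SE 0.31).

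Herpud1 had 16.1, 21.7 and 26.9 CPM without queuine and 25.5, 32.2 and 25.4 CPM with it, which gives 0.36 as log2 fold change (SE 0.29). Sel1l and Syvn1 form the channel and ligase complex that exports faulty ER proteins. Sel1l had 26.6, 50.2 and 34.7 CPM without queuine and 32.3, 35.8 and 28.6 CPM with it (log2 fold change -0.21, SE 0.27). Syvn1, which overlaps Mrpl49 on the opposite strand, had 2.27 to 6.74 CPM over the libraries and is too scarce to compare (SE 0.69). Edem1, which hands misfolded glycoproteins to this complex, had 69.1, 108 and 109.7 CPM without queuine and 93.2, 101 and 88.3 CPM with it (log2 fold change -0.02, SE 0.19). For Herpud1, Xbp1, Sel1l and Edem1 the lowest library was 0Q replicate 1.

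**Figure D3:**
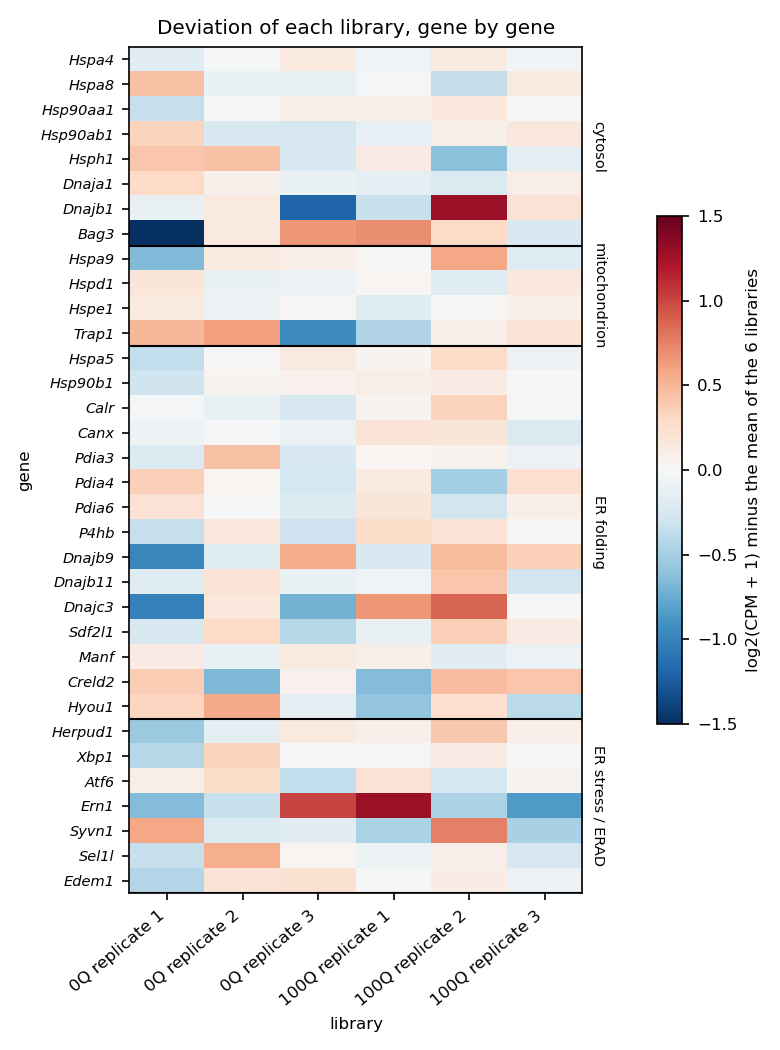
Deviation of each library from the mean of all 6, as log2 of CPM plus 1, for the 34 tested genes grouped by compartment; red is above the mean, blue below, and the colour scale ends at 1.5. Hspa8, Dnaja1, Hspd1, Pdia4 and Pdia6 are highest in 0Q replicate 1 and lowest in 100Q replicate 2, and Hsp90aa1, Hspa9, Hspa5, Hsp90b1, Dnajc3 and Herpud1 show the reverse.

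Some members were at opposite ends in 0Q replicate 1 and 100Q replicate 2, a pair of libraries chosen after their values were seen. Hsp90aa1, Hspa9, Hspa5, Hsp90b1, Dnajc3 and Herpud1, 6 of 34, were lowest in 0Q replicate 1 and highest in 100Q replicate 2, which held for 7.16% of all genes tested. Hspa8, Dnaja1, Hspd1, Pdia4 and Pdia6, 5 of 34, were highest in 0Q replicate 1 and lowest in 100Q replicate 2, against 6.77%. The remaining members, most of the 34, showed neither order. In all, 13 of the 34 were lowest in 0Q replicate 1, where 23.8% of all genes were. Of the 8 genes with an ERSE, 6 had their highest value in 100Q replicate 2, namely Hspa5, Hsp90b1, Calr, Dnajc3, Creld2 and Syvn1. The same held for 12 of all 34 members, for 7 of the 15 ER folding genes and for 19.8% of all genes. Syvn1 is scarce, and Hsp90b1 had 528 CPM there against 520.1 CPM in 100Q replicate 1. For the 8 genes with an ERSE the median log2 fold change was 0.14, and 6 of 8 estimates lay above 0, as did 20 of the 34 members. Any part of the ERSE in this was not tested. Deviations of 0Q replicate 1 and 100Q replicate 2 from their group means correlated at -0.22 over 6256 genes at 10 CPM or more (genes are not independent replicates). Other pairs of a 0Q and a 100Q library ranged from -0.21 to 0.23, so this pair does not stand apart. The correlation of deviation with transcript length was -0.21 in 0Q replicate 1 and 0.13 in 100Q replicate 2, and its part in these patterns was not tested. With each library's length trend removed, the median of the ER folding genes was 0.09.

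Other genes of protein folding and ER stress were read from lists of 145 genes, of which 130 were tested. By edgeR 0 of these passed the adjusted threshold, and 5 had an unadjusted p under 0.05, where 2.93% of all genes tested did. Estimates lay above 0 for 62 and below 0 for 68, with a median of -0.01. Groups did not overlap for 8 with 100Q higher and for 4 with 100Q lower, against 4.41% and 3.84% of all genes. In the cytosol the 14 genes of TRiC, the chaperonin for actin and tubulin, and of prefoldin, which delivers to it, had a median of -0.10, with 10 below 0. The most abundant was Pfdn5, a prefoldin subunit, at 591 and 538 CPM. Among all genes at 100 CPM or more 32.2% lay above 0, but some of the 14 were scarcer, and over all genes tested 50% did. Tcp1, a TRiC subunit, had 339.8, 292 and 339 CPM without queuine and 248, 234 and 278 CPM with it, groups that did not overlap (log2 fold change -0.35, SE 0.13, edgeR unadjusted p = 0.0138, adjusted p = 0.999). Cct2, its partner, also had groups that did not overlap, at 289.9 ± 20.6 and 251 ± 10.6 CPM (SD, n = 3 each), as did 3.84% of all genes in this direction. Of the 30 other cytosolic factors 16 lay above 0. The most abundant was Hsbp1, a binding partner of HSF1, at 464 and 445 CPM, while Bag2, a co-chaperone, had 5, 5 and 1 counts without queuine and 17, 10 and 86 counts with it, and Dnajc2, a ribosome-bound J-domain protein, 26.6 ± 6.20 and 40.4 ± 17.8 CPM.

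In the wider ER lists 29 folding factors had a median of -0.07, with Ppib, a prolyl isomerase, the most abundant at 829 and 772 CPM. Pdia5 had 3.78, 6.77 and 5.83 CPM without queuine and 1.14, 1.26 and 3.01 CPM with it (log2 fold change -1.53, SE 0.69, edgeR unadjusted p = 0.0409, adjusted p = 0.999). Its groups did not overlap, and its estimate was -2.16 without 100Q replicate 3, the extreme among the values with 1 library left out (-2.16 to -1.30). Sil1, an exchange factor of BiP, had 10.8 ± 5.66 and 5.33 ± 1.90 CPM. Among 23 genes of ER-associated degradation, with a median of 0.02, Vcp, the ATPase that pulls proteins out of the membrane, had 22.3, 19.6 and 12.8 CPM without queuine and 35.9, 41.9 and 25.8 CPM with it. Its groups did not overlap, and its log2 fold change was 0.91 (SE 0.30, edgeR unadjusted p = 0.00804, adjusted p = 0.999). Selenok, an ER selenoprotein, led that list at 504 and 487 CPM, and Edem2, a mannosidase-like protein, had 6.34 ± 3.36 and 10.9 ± 2.65 CPM. The signalling list held 18 tested genes with a median of 0.10, led by Eif2s1, the eIF2 subunit that PERK phosphorylates, at 453 and 435 CPM. Ppp1r15a, the GADD34 subunit that reverses this phosphorylation, had 6.42, 10.9 and 6.67 CPM without queuine and 21.3, 13.5 and 13.7 CPM with it (log2 fold change 1.00, SE 0.39, edgeR unadjusted p = 0.0207, adjusted p = 0.999), and Map3k5, a kinase downstream of IRE1, 3.59 ± 2.76 and 8.24 ± 3.05 CPM. Groups did not overlap, with 100Q higher, for 4 of these 18, the most in any wider list, against 4.41% of all genes. Over all wider lists it was 8 of 130. The 4 were Ppp1r15a and, named after their values were seen, Mbtps1, Mbtps2 and Nfya. Mbtps1 and Mbtps2 encode the proteases that cut ATF6, and Nfya a subunit of the factor that binds the CCAAT box. These 3 had means between 1.71 and 11.6 CPM and edgeR unadjusted p values from 0.133 to 0.3. Eif2ak3, Atf4 and Ddit3, named outside the rule and after their values were seen because they form the PERK branch, had log2 fold changes of 0.08 (-0.28 to 0.82 with each library left out), -0.15 and 0.12.

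In the mitochondrial list of 16, with a median of -0.07, Dnajc15 was the most abundant at 203 and 202 CPM. Timm44, which tethers Hspa9 to the import channel, had 18.4 ± 6.73 and 26.7 ± 4.40 CPM, and Grpel2, an exchange factor of Hspa9, 4.78 ± 2.09 and 9.01 ± 3.38 CPM (SD, n = 3 each), with 5 of 16 estimates above 0.

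**Figure D4:**
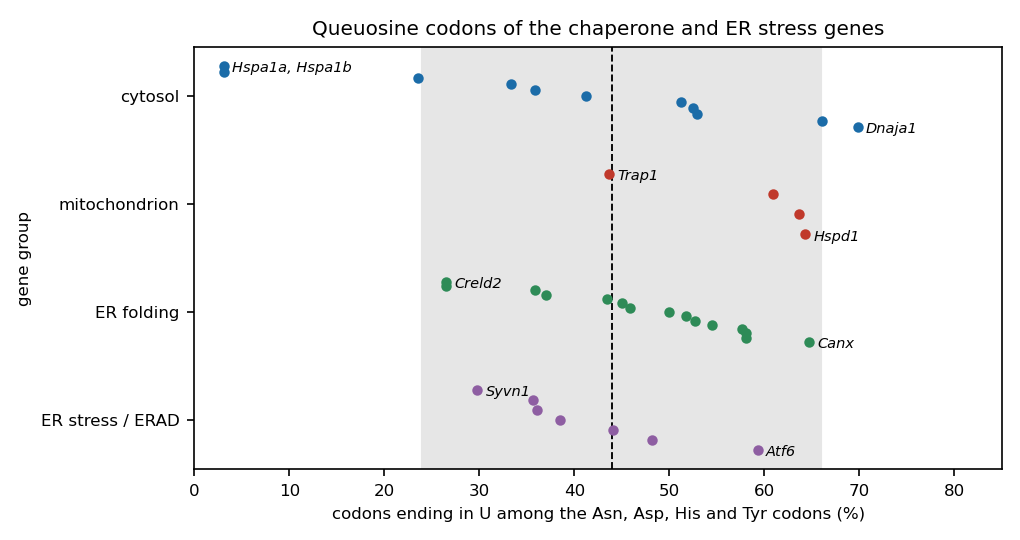
U-ending share of the codons for asparagine, aspartate, histidine and tyrosine in each gene's canonical coding sequence (percent), by compartment; the dashed line is the median of tested genes with at least 20 such codons and the grey band their 5th to 95th percentile. Hspa1a and Hspa1b stand at 3.09%, far left of the band, and Dnaja1 at 69.8%, right of it.

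Codon composition varied widely among the members. For the 4 amino acids, the share of codons ending in U was 3.09% in Hspa1a and Hspa1b and 69.8% in Dnaja1, against a median of 44.0% over 8732 tested genes, with 12 of 19471 genes at or below Hspa1a. The mitochondrial genes had a median of 62.3% and the ER folding genes 50.0%, with Canx at 64.7% and Sdf2l1 at 26.5%. The cytosolic genes had a median of 41.2% and the ER stress genes 38.5%. In all, 21 of the 37 lay above the median of tested genes. Over 33 tested members with at least 20 such codons, the rank correlation of this share with the log2 fold change was -0.19, a description over genes that share the same 6 libraries.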

How the data were processed

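Libraries of mRNA from 6 cultures (3 in 0Q, 3 in 100Q) were sequenced. The authors deposited 1 table of estimated counts (RSEM expected counts) per Ensembl gene, not normalized, with 1 column per library. The submitters' processing notes name FastQC, STAR and RSEM, and mm39 (GRCm39) as build. The sources used here do not give versions, annotation release, strandedness or library chemistry. RSEM divides ambiguous reads, and 5.51% to 10.5% of values per library were not whole, so near-identical genes such as Hspa1a and Hspa1b are uncertain, as are overlapping genes. The least different pair of libraries had a chi-square per gene of 8.36, so none was a copy.

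Of 57132 identifiers 56630 matched GENCODE mouse release 39; for Ddit3, with 2 identifiers, the more abundant was used. Counts were rounded and tested with edgeR 4.0.16 in R 4.3.3 (filterByExpr, TMM, robust glmQLFit, glmQLFTest, Benjamini-Hochberg over all genes, threshold 0.05), a procedure tested on simulated data. SE is the absolute log2 fold change over the root of F. Alternatives were DESeq2 1.42.0, limma-voom (limma 3.58.1), other scalings and filters, a replicate block, thinning of 100Q replicate 3 and each library left out. Named genes are all members, the most abundant and the 2 with the smallest p of each wider list, and the most abundant of each marker list; genes named beyond this rule are marked as such, or stand with the member whose annotation they overlap. Members and lists were chosen with earlier results of these data known.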

Additional observations from a re-analysis of the deposited data

How the results depend on the processing

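All alternatives were planned except a correction for transcript length, which was chosen after seeing the data. No chaperone or unfolded protein response gene passed the adjusted threshold in any setting, with 1 or 2 at an unadjusted p under 0.05 in each. The count over all genes, 0, was 0 to 2 over omitted libraries (2 without 0Q replicate 1, 1 without 0Q replicate 2). The median of the cytosolic genes, 0.05, was 0.12 without a filter on low counts, which adds 2 scarce genes, and -0.06 with a stricter filter, which leaves 6 genes. Over omitted libraries the medians ranged from -0.01 to 0.06 (cytosolic), -0.09 to 0.03 (mitochondrial), 0.09 to 0.21 (ER folding) and -0.14 to 0.07 (ER stress). Of single members, 36 of 204 leave-one-out estimates, 3 of 34 under the block and 15 of 268 elsewhere had the opposite sign, none of them called. With the replicate block 0 members and 0 genes passed and the ER folding median was 0.13; it changed no call. Same-numbered libraries had deviations correlated at 0.05, 0.19 and -0.06, so the numbers are not taken to pair the samples. Depth limits the scarce members most.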

Other observations

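Per kilobase of canonical transcript, Pdia4 exceeded P4hb by 1.48 to 3.99 times and Pdia3 by 3.44 to 7.51 times in the 6 libraries, and Pdia6 exceeded P4hb by 2.48 to 5.2 times. Calr exceeded its membrane-bound relative Canx by 1.10 to 1.40 times. Hspa8 hosts the snoRNA genes Snord14c, Snord14d and Snord14e in the annotation, which were listed at 0, 0 and 8 counts over all libraries. Dnaja1 overlaps Smu1 on the opposite strand, a gene with 7018 counts over all libraries, and Hspa5 overlaps Rabepk in the same way, with 662 counts; the counting is not stated to use strand. Hsf1, which encodes the heat shock factor, had 22, 22 and 14 counts in 0Q and 6, 4 and 37 counts in 100Q, where replicate 3 was the deepest library. In CPM this was 3.72 ± 0.55 and 1.31 ± 0.58 (SD, n = 3 each). Hsf1 is scarce and is named here after its values were seen. Its groups did not overlap, as held in this direction for 3.84% of all genes tested, and its edgeR unadjusted p was 0.0909 (adjusted p = 0.999).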
